A study of Mus musculus with 12 samples.

Results

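The genes described are 8 lysosomal cathepsins, namely cathepsin A (Ctsa), B (Ctsb), C (Ctsc), D (Ctsd), H (Ctsh), L (Ctsl), S (Ctss) and Z (Ctsz), together with their secreted inhibitor cystatin C (Cst3). They were taken by gene symbol, with earlier results of these data known, and make up 9 of the 47643 genes in the count table. All 9 had enough reads to be tested, among 13681 tested genes. Cathepsin K (Ctsk), the cathepsin by which osteoclasts degrade bone collagen, is not a member and is given only as a reference.

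The RNA was from osteoclasts grown in vitro from bone marrow cells of BALB/c WT mice, and bulk RNA-seq. was available for 12 libraries in 3 groups of 4 biological replicates. All cultures received M-CSF and RANKL, got fresh medium on day 2 and were harvested for RNA on day 3. The OCsCtr group had no further stimulus. In OCsEo, sorted eosinophils of IL-5tg/4get mice were added to the bone marrow derived monocytes (BMMs) on day 0 for 48 h at a ratio of 1 BMM to 2 eosinophils, and in OCsEoS, eosinophil supernatant diluted 1:2 was added over the same time. The stimuli were then washed off, so that OCsEo cultures could still hold RNA of eosinophils that remained attached or had been taken up. The question of the comparisons is how contact with eosinophils, or with what they release, changes the osteoclast transcriptome.

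Cathepsins are proteases of the endosome and lysosome that are made as inactive precursors, are carried to the lysosome mainly by mannose 6-phosphate tags, and are cut to their active form in the acid compartment. Most are cysteine proteases (B, C, H, L, S and Z), whereas cathepsin D is an aspartic protease and cathepsin A a serine carboxypeptidase. In macrophages they digest engulfed material and prepare antigens, and in osteoclasts cathepsin K is the main collagen-degrading member of the family. Cystatin C binds and blocks the cysteine cathepsins, mostly outside the cell.

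Total counts were between 27837530 and 40327869 per library, so that 3 counts corresponded to 0.0744 to 0.108 counts per 1000000 before scaling, far below any member. CPM given below are counts per 1000000, scaled by TMM. Each member had at least 1091 counts in every library, and replicates of a group differed by 10.3 to 36.9 times the counting variance (chi-square per degree of freedom over genes), so that no library was a repeat of another. Of the 10 osteoclast markers checked, all were detected in every group, and their summed CPM was 28348 to 34484 in OCsCtr, 18086 to 23197 in OCsEo and 14937 to 22163 in OCsEoS, with 8 of the 10, Ctsk included, called lower in each comparison with OCsCtr. The 8 macrophage markers summed to 6451 to 7080 CPM in OCsCtr, 6640 to 8170.4 in OCsEo and 6174 to 7283 in OCsEoS. In bulk libraries, a lower share of osteoclasts among the cells and less of a transcript per osteoclast cannot be told apart, and this holds for every difference given here.

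By the coordinates of the count table (GRCm38), Ctsd (ENSMUSG00000007891) lies at chr7:142371148-142388038 on the minus strand, Ctsb (ENSMUSG00000021939) at chr14:63122462-63145919 on the plus strand, Ctsl (ENSMUSG00000021477) at chr13:64363214-64370306 on the minus strand and Ctss (ENSMUSG00000038642) at chr3:95526786-95556403 on the plus strand. Ctsc (ENSMUSG00000030560) lies at chr7:88278085-88310888 and Ctsh (ENSMUSG00000032359) at chr9:90054152-90076089, both on the plus strand. Chromosome 2 carries Ctsa (ENSMUSG00000017760, chr2:164832873-164841032, plus), Ctsz (ENSMUSG00000016256, chr2:174427493-174439039, minus) and Cst3 (ENSMUSG00000027447, chr2:148871722-148875692, minus). All 9 are protein-coding. Values are counts over all exons of a gene. Some exons of Ctsa overlap Pltp (495 bases) and Neurl2 (324 bases) on the opposite strand, and those of Ctsb overlap Fdft1 (774 bases), so that their reads could be mixed, since strand-specific counting is not stated. Pltp, Neurl2 and Fdft1 had mean counts of 4340.0, 282 and 706, whereas Ctsa had at least 15255 counts and Ctsb at least 49784 in every library. By GENCODE vM21 exons, Ctsd overlaps Gm49369 on the same strand (808 bases), and Ctsz overlaps Nelfcd on the opposite strand (10 bases). Ctsl overlaps Gm47123 on the opposite strand (1742 bases) and Gm49230 on the same strand (395 bases). Gm49369, Gm47123 and Gm49230 are not in the count table.

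Promoter windows of RefSeq (GRCm38.p6), which hold 250 bases before and 50 bases after a start, were available for 7 of the 9 members, all but Ctsb and Ctsh. They were searched on both strands for the E-box CACGTG, for its longer form TCACGTGA, the core of the lysosomal gene element bound by the MiT/TFE factors, and for GAGGAAGT, the ETS motif bound by the myeloid factor PU.1. These motifs were chosen with the expression values known. CACGTG was present in the windows of Ctsa, Ctsd and Ctsl, and in 7.15% of all 32851 windows. TCACGTGA, which contains CACGTG and reads the same on both strands, was present in those of Ctsa and Ctsd, and in 0.974% of all windows. GAGGAAGT was present in those of Ctsc and Ctss, and in 3.20% of all windows. A member was counted if any of its windows matched, and Ctsa has more than 1 window, whereas the shares are of single windows. The stretches of at most 30 bases around each match are shown on the strand of the gene, because they let the members with and without a change in expression be compared, with the motif, or its complement ACTTCCTC, in capitals.
Ctsd, chr7:142388055-142388077, motif 245 bases before the start: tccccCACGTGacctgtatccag
Ctsd, chr7:142387908-142387937, motif 99 bases before the start: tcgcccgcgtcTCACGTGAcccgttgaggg
Ctsl, chr13:64370739-64370768, motif 236 bases before the start: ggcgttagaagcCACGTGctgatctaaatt
Ctsa, chr2:164833749-164833778, motif 13 bases before the start: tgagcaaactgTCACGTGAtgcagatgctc
Ctsa, chr2:164833766-164833795, motif from transcribed base 5: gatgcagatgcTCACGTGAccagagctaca
Ctsc, chr7:88277923-88277952, motif 151 bases before the start: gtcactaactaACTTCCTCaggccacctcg
Ctss, chr3:95526773-95526802, motif from 2 bases before the start: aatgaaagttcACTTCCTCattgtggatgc

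The RefSeq starts of Ctsc, Ctss and Ctsz are those of the count table. The start used for Ctsd is 211 bases downstream and that for Ctsl 214 bases upstream of the table's start, and the Ctsa window with matches belongs to a start 900 bases downstream of it. The other Ctsa window, at a start 1 base upstream of the table's start, held none of the motifs. The windows of Ctsz and Cst3 held none either. The E-box was thus found at Ctsd and Ctsl, which rose with eosinophils, and at the downstream start of Ctsa, which did not. The ETS motif was found at Ctss, which rose in both comparisons, and at Ctsc. Whether the motifs bear on the changes in expression was not tested. The 250 bases before the start are given in full for Ctss and Ctsc, as both windows begin at the start that the count table uses.
Ctss, chr3:95526536-95526785, plus strand: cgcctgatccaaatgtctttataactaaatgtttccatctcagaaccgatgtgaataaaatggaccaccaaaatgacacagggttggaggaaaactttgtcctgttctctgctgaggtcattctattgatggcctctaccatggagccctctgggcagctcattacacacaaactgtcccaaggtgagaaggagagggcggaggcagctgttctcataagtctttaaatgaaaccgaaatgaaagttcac
Ctsc, chr7:88277835-88278084, plus strand: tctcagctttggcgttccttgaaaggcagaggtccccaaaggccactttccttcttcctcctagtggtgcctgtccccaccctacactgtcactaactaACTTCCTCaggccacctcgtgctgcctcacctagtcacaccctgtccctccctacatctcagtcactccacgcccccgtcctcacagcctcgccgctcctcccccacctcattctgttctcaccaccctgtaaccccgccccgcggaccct

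In OCsEo, 4 of the 9 members were called higher than in OCsCtr, namely Ctsl, Ctss, Ctsb and Ctsd, and 0 were called lower. To be called, a difference needed an adjusted p below 0.05 in edgeR's quasi-likelihood F-test (Benjamini-Hochberg, over all tested genes) together with a log2 fold change above 0.5 or below -0.5. By this rule, 3.27% of all tested genes were called higher and 2.61% lower. By the adjusted p alone, 5 members were higher, with Ctsh as the fifth, against 9.06% of all tested genes, and 0 were lower, against 8.35%. At an unadjusted p under 0.05, 7 members were higher and 0 lower, and DESeq2 called 4 higher and 0 lower. For these last counts the share of all tested genes was not computed. The median log2 fold change of the 9 members was 0.35, and that of all tested genes was -0.01.

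In OCsEoS, 2 members were called higher than in OCsCtr, Ctsl and Ctss, against 3.63% of all tested genes, and 0 were called lower, against 4.11%. By the adjusted p alone, 4 members were higher (Ctsl, Ctss, Ctsc and Ctsh), against 11.8% of all tested genes, and 2 were lower (Ctsa and Ctsz), against 11.2%. DESeq2 called 2 higher and 0 lower, and at an unadjusted p under 0.05, 6 were higher and 2 lower. The share of all tested genes by DESeq2 or at an unadjusted p was not computed here either. The median log2 fold change of the members was 0.17, and that of all tested genes was -0.01. Both comparisons use the same OCsCtr libraries, so that a control library that deviates moves both.

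Between the stimulated groups, 0 members were called in OCsEoS against OCsEo, where 0.307% of all tested genes were called lower. By the adjusted p alone, 3 members were lower in OCsEoS (Ctsd, Ctsb and Ctsa), against 0.497% of all tested genes. An unadjusted p under 0.05 was reached by 6 members that were lower and 1 that was higher, and DESeq2 called 0. Again, no share of all tested genes was computed for these counts. The median log2 difference of the members was -0.25, and that of all tested genes was 0.0015. Markers of other cells moved in the same comparison, with 3 of 10 neutrophil genes (Mpo, Ngp and Ltf) and 2 of the 5 tested eosinophil genes (Alox15 and Prg2) called lower by edgeR in OCsEoS than in OCsEo. DESeq2 called 5 neutrophil and 2 eosinophil genes lower. At an unadjusted p under 0.05, 9 neutrophil and 3 eosinophil genes were lower and 0 higher. The part of these markers in the differences of the members was not tested.

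**Figure D1:**
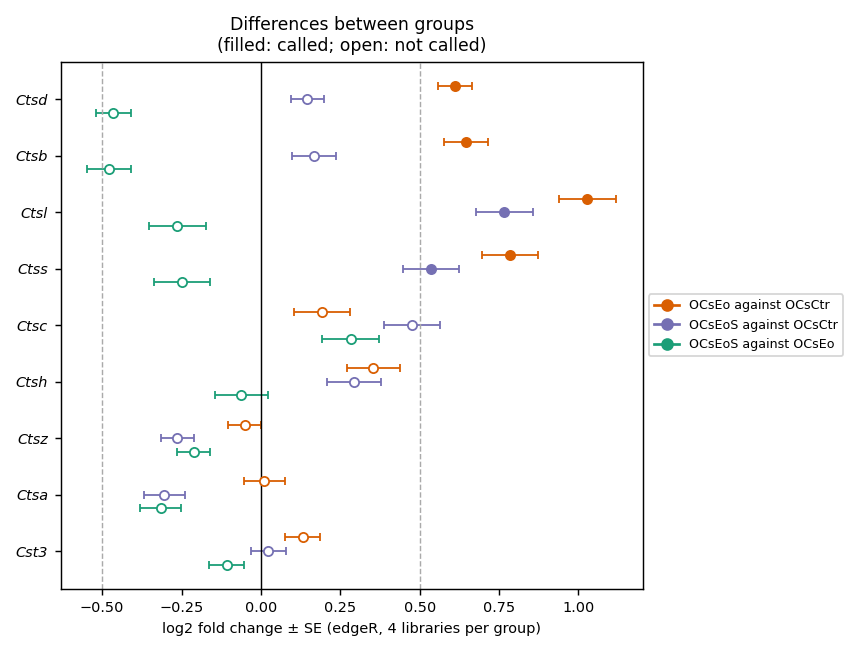
Fitted log2 fold changes with standard errors (x axis) of the 9 members (y axis) in 3 comparisons, with dashed lines at the cut-off of 0.5 and filled points for called genes. Ctsl and Ctss are filled in both comparisons with OCsCtr, Ctsd and Ctsb only for OCsEo, and every point of Ctsa, Ctsz, Ctsc, Ctsh and Cst3 is open.

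Ctsl encodes cathepsin L, an endopeptidase that degrades proteins in the lysosome. Its level was 994, 793, 949 and 1079 CPM in the OCsCtr libraries, 2049, 1690.0, 1931 and 2114 CPM in OCsEo, and 1746, 1364, 1627 and 1751 CPM in OCsEoS. All stimulated libraries were above all OCsCtr libraries, and the stimulated groups overlapped each other. Replicate 2 was the lowest of each group. Ctsl showed the largest log2 fold change of the 9 members in OCsEo (1.03, SE 0.09, edgeR adjusted p = 3.72e-07) and in OCsEoS (0.77, SE 0.09, adjusted p = 9.95e-06), which are 2.04-fold and 1.70-fold. It was the 1 member that was called with a cut-off of 1 on the log2 fold change, and only in OCsEo. The difference between OCsEoS and OCsEo was -0.26 (SE 0.09, adjusted p = 0.238) and did not pass the test.

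Ctss encodes cathepsin S, which stays active at neutral pH and cuts the invariant chain of MHC class II. The OCsCtr libraries held 606, 603, 668 and 796 CPM, the OCsEo libraries 1075, 1066, 1092 and 1373 CPM, and the OCsEoS libraries 1057, 969, 963 and 886 CPM. Every stimulated library was above the highest OCsCtr library, and OCsEoS lay below OCsEo without overlap. Ctss rose 1.72-fold in OCsEo (log2 0.78, SE 0.09, edgeR adjusted p = 6.70e-06) and 1.45-fold in OCsEoS (log2 0.54, SE 0.09, adjusted p = 2.22e-04), while OCsEoS against OCsEo gave -0.25 (SE 0.09, adjusted p = 0.266). The call in OCsEoS lies near the cut-off. It was lost when OCsCtr replicate 1 (log2 0.48), OCsCtr replicate 2 (0.49) or OCsEoS replicate 1 (0.499) was left out and when the gene length trend of the libraries was removed (0.41), each time with an adjusted p of at most 0.00341.

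Ctsd, the aspartic protease cathepsin D, was the cathepsin with the highest CPM of the 8. It reached 2235, 2227, 2243 and 2567 CPM in OCsCtr, 3614, 3582, 3367 and 3601 CPM in OCsEo, and 2692, 2590.5, 2389 and 2594 CPM in OCsEoS. OCsEo was separate from both other groups, and OCsEoS overlapped OCsCtr only through OCsCtr replicate 4. The log2 fold change was 0.61 in OCsEo (SE 0.05, edgeR adjusted p = 3.72e-07), or 1.53-fold, and 0.15 in OCsEoS (SE 0.05, adjusted p = 0.0535). Ctsd was lower in OCsEoS than in OCsEo by the adjusted p (log2 -0.46, SE 0.05, adjusted p = 1.07e-04), with a size under the cut-off. The difference of Ctsd in OCsEoS lay near the threshold. It passed 0.05 with DESeq2 on all libraries (adjusted p = 0.0247) or on 2 groups (0.0351), with DESeq2's size factors (0.0466), with at least 10 counts in every library (0.0499), and without OCsCtr replicate 4 (0.0107), OCsEo replicate 3 (0.0463) or OCsEoS replicate 3 (0.0280), at a log2 fold change of at most 0.20.

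Ctsb encodes cathepsin B, an endopeptidase and carboxypeptidase of wide use in macrophages. It was measured at 1725, 1736, 1883 and 2167 CPM in OCsCtr, at 2864, 2881, 2791 and 3221 CPM in OCsEo, and at 2291, 2143, 2015 and 1989 CPM in OCsEoS. As for Ctsd, the OCsEo libraries were above those of both other groups, while OCsEoS and OCsCtr overlapped. The log2 fold change was 0.65 in OCsEo (SE 0.07, edgeR adjusted p = 3.27e-06), or 1.56-fold, and 0.17 in OCsEoS (SE 0.07, adjusted p = 0.0868). The latter passed 0.05 without the filter on low counts (adjusted p = 0.0486), with the gene length trend removed (0.0269) and without OCsCtr replicate 4 (0.0107), at up to 0.24. In OCsEoS against OCsEo it was -0.48 (SE 0.07, adjusted p = 0.00123), and it passed the cut-off when OCsEo replicate 1 (-0.50), OCsEo replicate 3 (-0.50) or OCsEoS replicate 1 (-0.52) was left out. Fdft1, whose exons overlap Ctsb, had a log2 fold change of 0.06 in OCsEo (SE 0.12, adjusted p = 0.782) and of 0.42 in OCsEoS (SE 0.12, adjusted p = 0.0128).

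**Figure D2:**
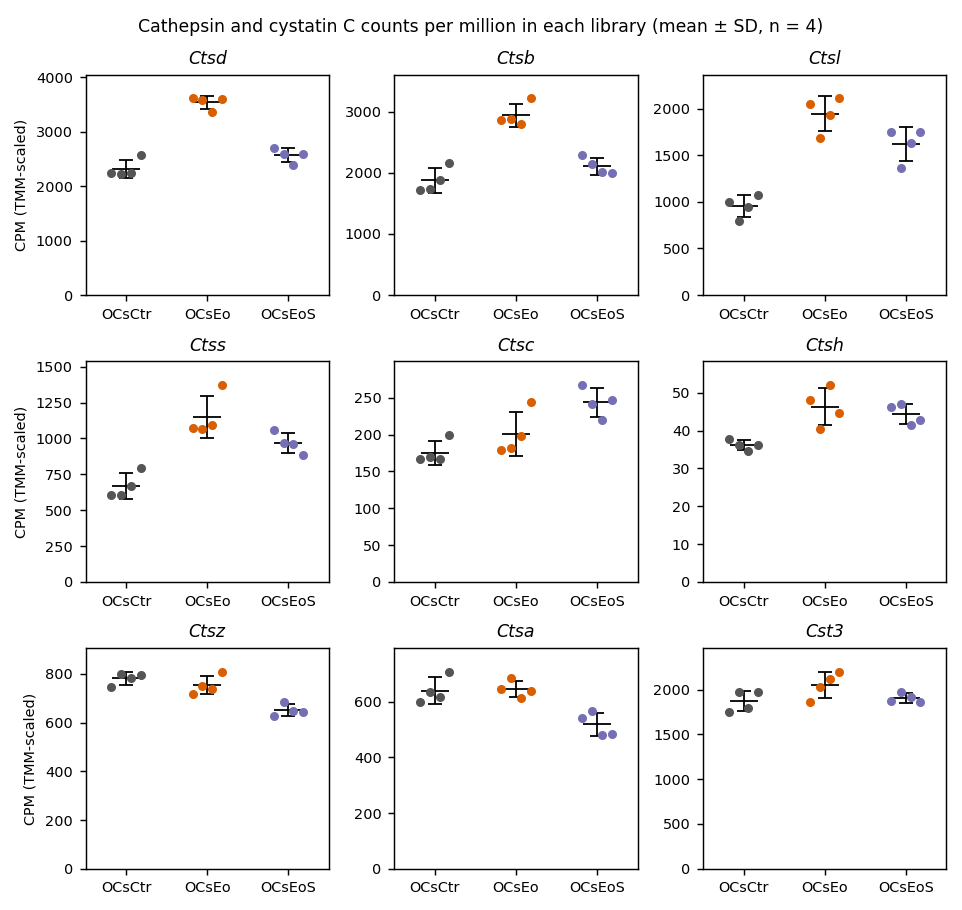
TMM-scaled CPM (y axis, from 0) of each member in the 4 libraries of each group (x axis), with points for libraries and bars for the mean and SD. For Ctsd and Ctsb the OCsEo libraries stand above both other groups, for Ctsl and Ctss both stimulated groups stand above OCsCtr, and for Ctsa and Ctsz the OCsEoS libraries stand below both other groups.

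Ctsc encodes cathepsin C, or dipeptidyl peptidase I, which activates the serine proteases of granules. Its level was 167, 169, 166 and 199.6 CPM in OCsCtr, 178, 182, 198 and 244 CPM in OCsEo, and 267, 242, 219.9 and 247 CPM in OCsEoS. Only the OCsEoS libraries were all above OCsCtr, and OCsEo overlapped both other groups. For Ctsc, the difference from OCsCtr on the log2 scale was 0.48 in OCsEoS (SE 0.09, edgeR adjusted p = 6.77e-04), just under the cut-off, and 0.19 in OCsEo (SE 0.09, adjusted p = 0.153). Without OCsCtr replicate 4 (0.54), without OCsEoS replicate 3 (0.53) or with the gene length trend removed (0.55), Ctsc was called higher in OCsEoS. The difference of OCsEoS from OCsEo was 0.28 (SE 0.09, adjusted p = 0.203).

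Ctsh, the aminopeptidase cathepsin H, was the least expressed member. The OCsCtr libraries were close together at 37.8, 36.3, 34.6 and 36.3 CPM, with 48.1, 40.4, 52.0 and 44.8 CPM in OCsEo and 46.3, 47.1, 41.4 and 42.9 CPM in OCsEoS. All 8 stimulated libraries were above the highest OCsCtr library, and the stimulated groups overlapped. Ctsh was higher by the adjusted p, but under the cut-off, in OCsEo (log2 0.35, SE 0.08, edgeR adjusted p = 0.00616) and in OCsEoS (log2 0.29, SE 0.08, adjusted p = 0.0164).

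Ctsz encodes cathepsin Z, a carboxypeptidase that is also secreted. It was found at 744, 800.0, 781 and 797 CPM in OCsCtr, 718, 749, 739 and 808 CPM in OCsEo, and 626, 686, 646 and 643 CPM in OCsEoS. OCsCtr and OCsEo overlapped, and the OCsEoS libraries were below all others. Ctsz gave a log2 fold change of -0.05 in OCsEo (SE 0.05, edgeR adjusted p = 0.572) and -0.26 in OCsEoS (SE 0.05, adjusted p = 1.00e-03), the latter lower by the adjusted p and under the cut-off. OCsEoS against OCsEo gave -0.21 (SE 0.05, adjusted p = 0.0735), and Ctsz passed 0.05 there with DESeq2 on all libraries (adjusted p = 0.00595) or on 2 groups (0.0185) and with the gene length trend removed (-0.24, adjusted p = 0.0344). With that trend removed, the difference in OCsEo against OCsCtr was -0.15 (adjusted p = 0.0491).

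Ctsa encodes cathepsin A, which also protects β-galactosidase and neuraminidase in the lysosome. Its libraries held 601, 636, 617 and 707 CPM in OCsCtr, 645, 683, 612 and 639 CPM in OCsEo, and 543, 565, 481 and 484 CPM in OCsEoS. As for Ctsz, all OCsEoS libraries were the lowest, and the other groups overlapped. The log2 fold change was 0.01 in OCsEo (SE 0.06, edgeR adjusted p = 0.939) and -0.30 in OCsEoS (SE 0.06, adjusted p = 0.00183). Against OCsEo, Ctsa was lower in OCsEoS by -0.32 (SE 0.06, adjusted p = 0.0261), which no longer passed when OCsEo replicate 1, 2 or 4 or OCsEoS replicate 1, 3 or 4 was left out, with adjusted p-values of up to 0.117. Pltp, which overlaps Ctsa, gave 0.28 in both comparisons (SE 0.11, adjusted p = 0.0920 in OCsEo and 0.0787 in OCsEoS).

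Cst3 encodes cystatin C, the inhibitor among the members. The libraries held 1756, 1972, 1799.6 and 1975 CPM in OCsCtr, 1868, 2033, 2117 and 2199 CPM in OCsEo, and 1870.1, 1977, 1917 and 1864 CPM in OCsEoS. The 3 groups overlapped throughout. For Cst3, the fitted log2 fold change was 0.13 in OCsEo (SE 0.06, edgeR adjusted p = 0.116) and 0.02 in OCsEoS (SE 0.06, adjusted p = 0.817). Leaving out OCsEo replicate 1, the lowest of its group, gave 0.17 (adjusted p = 0.0425).

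To compare levels between genes, counts were divided by the gene length of the table and scaled to 1000000 per library (TPM). In OCsCtr, the order was Cst3 (2951 ± 142 TPM, SD, n = 4), Ctsd (1834 ± 140), Ctsz (1079 ± 18.4), Ctss (981 ± 135), Ctsl (966 ± 136), Ctsb (789.7 ± 88.1), Ctsa (270.5 ± 19.3), Ctsc (60.2 ± 5.70) and Ctsh (16.1 ± 0.847). The neighbours from Ctsz to Ctsb overlapped in their libraries, so that their order is not set, and the other neighbours were separate. In OCsEo, Ctsl (1865 ± 208 TPM), Ctss (1604 ± 239) and Ctsb (1173 ± 111) stood above Ctsz (988 ± 74.0), where Ctsl overlapped Ctss and Ctsb overlapped Ctsz. In OCsEoS, Ctsl (1573 ± 171 TPM) and Ctss (1365 ± 106), which overlapped each other, were above Ctsz (864 ± 44.9) and Ctsb (852 ± 66.7), which overlapped too. Cst3 and Ctsd stayed the highest, and Ctsa, Ctsc and Ctsh the lowest, in all 3 groups. The place of Ctsl depends on its length, which is 1971 bases in the table and 6489 bases in GENCODE vM21. With the latter, its mean level was 332 TPM in OCsCtr, 645 in OCsEo and 545 in OCsEoS, below those of Ctss, Ctsz and Ctsb.

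**Figure D3:**
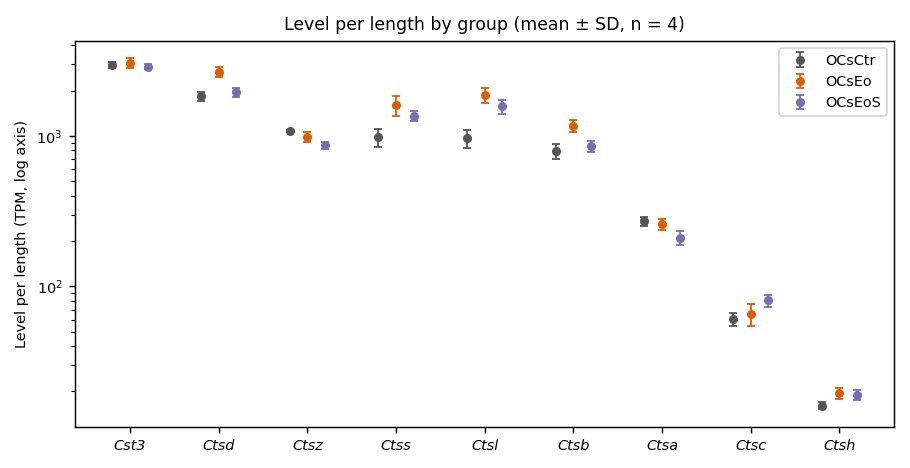
Level per length in TPM (y axis, log scale) of each member (x axis) as mean and SD of the 4 libraries of each group, with lengths from the count table. Cst3 and Ctsd lie highest and Ctsc and Ctsh lowest in each group, while Ctsl and Ctss move from beside Ctsz in OCsCtr to above it in both stimulated groups.

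The 8 cathepsins together took 0.750% ± 0.0656 of all gene counts in OCsCtr, 1.11% ± 0.0577 in OCsEo and 0.874% ± 0.0448 in OCsEoS (SD, n = 4). With Cst3, the 9 genes took 0.939% ± 0.0714, 1.32% ± 0.0604 and 1.06% ± 0.0439 in the same order. The OCsEo libraries (1.04 to 1.18%) were above all others, and the OCsEoS libraries (0.829 to 0.936%) overlapped with OCsCtr (0.694 to 0.845%). Ctsk alone took 1.22% ± 0.0923 in OCsCtr, 0.828% ± 0.0874 in OCsEo and 0.739% ± 0.0996 in OCsEoS. Thus Ctsk held more counts than the 8 other cathepsins summed in each OCsCtr library, and fewer in each OCsEo and OCsEoS library. The log2 fold change of Ctsk was -0.54 in OCsEo (SE 0.09, edgeR adjusted p = 4.45e-04) and -0.71 in OCsEoS (SE 0.09, adjusted p = 2.27e-05), called lower in both, and its call in OCsEo was lost without OCsEo replicate 1 (-0.45).

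**Figure D4:**
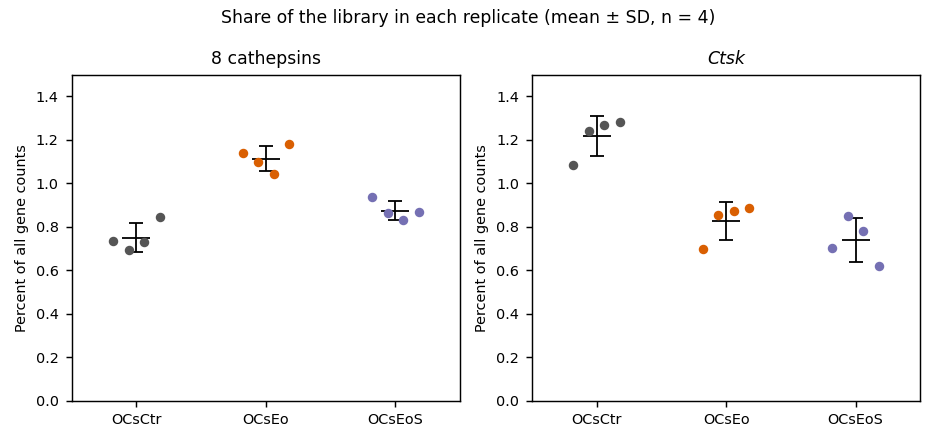
Percent of all gene counts (y axis, from 0) taken by the 8 cathepsins summed and by Ctsk in each library (points) with the mean and SD of each group. The 8 cathepsins rise from a mean of 0.750% in OCsCtr to 1.11% in OCsEo, while Ctsk goes from 1.22% to 0.828%.

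On the scale of level per length, Ctsl stood at 0.0609 ± 0.0104 of the level of Ctsk in OCsCtr, at 0.181 ± 0.0333 in OCsEo and at 0.173 ± 0.0414 in OCsEoS (SD, n = 4). The ratio of Ctss to Ctsk was 0.0615 ± 0.00708, 0.154 ± 0.0198 and 0.148 ± 0.0199 in the same order. For the members alone, the summed level of their cysteine cathepsins was 1.32 ± 0.110 times that of Cst3 in OCsCtr, 1.87 ± 0.135 times in OCsEo and 1.65 ± 0.108 times in OCsEoS. In each of these ratios, the libraries of both stimulated groups were above all OCsCtr libraries. The sum set against Cst3 left out Ctsk, also a cysteine cathepsin, whose mean level was 15953 TPM in OCsCtr, 10420 in OCsEo and 9342 in OCsEoS. The inhibitor Cstb (5282, 5345 and 5134 TPM) was left out too. The ratio thus does not give the balance of all cysteine cathepsins with their inhibitors. With GENCODE vM21 lengths, an alternative chosen after the data were seen, the ratio of Ctsl to Ctsk was 0.0185 ± 0.00315 in OCsCtr, 0.0550 ± 0.0101 in OCsEo and 0.0525 ± 0.0126 in OCsEoS, and that of the cysteine cathepsins to Cst3 was 1.03 ± 0.0741, 1.36 ± 0.0876 and 1.21 ± 0.0627. The sizes of both ratios thus depend on the length, while the stimulated libraries were again above all OCsCtr libraries. These are ratios of transcripts, and neither protein nor protease activity was measured here.

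The members did not vary as 1 block across the 12 libraries. Ctsb and Ctsd had the closest profiles of log2 CPM (Pearson r = 0.98), followed by Ctsl and Ctss (0.93) and Ctsb and Ctss (0.89). Ctsa was closest to Ctsz (0.84), and Ctsz went against Ctsc (-0.62), Ctsh (-0.45) and Ctsl (-0.42). These values are descriptions, since the 12 libraries fall into 3 groups and share the group differences.

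Among all other tested genes, the 3 most alike to each member over the 12 libraries were taken by the same Pearson r. Ctsd was most like Gpnmb (0.99), Alox15 (0.96) and Vat1 (0.96), and Ctsb like Gpnmb (0.98), Psap (0.96) and Lamp1 (0.96). The closest to Ctsl were Pmp22 (0.99), Rnf128 (0.99) and Lipa (0.98), and to Ctss AF251705 (0.97), Hk3 (0.97) and Serpinb6a (0.97). Ctsz was nearest to Cd68 (0.97), Epm2a (0.96) and Acaa1a (0.96), and Ctsa to Sirpa (0.98), Tgfb1 (0.97) and Glud1 (0.93). For Ctsc they were Pf4 (0.94), Arg1 (0.92) and Ifitm3 (0.91), for Ctsh Fam132a (0.94), Dph7 (0.93) and Cdca5 (0.92), and for Cst3 Unc93b1 (0.93), Amdhd2 (0.89) and Tpi1 (0.88). Gpnmb, a membrane glycoprotein of lysosome-rich macrophages and osteoclasts, was shared by Ctsd and Ctsb. The fit gave Gpnmb a log2 fold change of 1.06 in OCsEo (SE 0.08, edgeR adjusted p = 1.01e-07) and 0.20 in OCsEoS (SE 0.08, adjusted p = 0.0894).

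Cathepsins reach the lysosome with the help of sorting and processing genes, of which 12 were listed and tested. In OCsEo, 3 were called higher (Psap, Sort1 and Scarb2) and 1 lower (Gnptab), and in OCsEoS 1 was called higher (Sort1) and 1 lower (Gnptab). Psap, whose product prosaposin can carry cathepsin D and is itself cut by it, had 1865, 1975, 1938 and 2326 CPM in OCsCtr, 2927, 2885, 2749 and 3172 CPM in OCsEo, and 2121, 2121, 1916 and 1925 CPM in OCsEoS. Like Ctsd and Ctsb, it was higher in all OCsEo libraries than in all others. For Psap the test gave 0.53 on the log2 scale in OCsEo (SE 0.06, edgeR adjusted p = 1.53e-05), -0.0038 in OCsEoS (SE 0.06, adjusted p = 0.977) and -0.54 in OCsEoS against OCsEo (SE 0.06, adjusted p = 1.57e-04). The call in OCsEo is close to the cut-off and was lost without OCsCtr replicate 1 (0.49) or OCsEo replicate 4 (0.49), and that between the stimulated groups without OCsEo replicate 4 (-0.499).

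Sort1 encodes sortilin, a sorting receptor for lysosomal proteins, and was scarce, with 5.44 to 6.75 CPM in OCsCtr, 7.90 to 14.6 in OCsEo and 7.90 to 14.1 in OCsEoS. It rose by 0.81 in OCsEo (SE 0.20, edgeR adjusted p = 0.00808) and by 0.79 in OCsEoS (SE 0.20, adjusted p = 0.00775). Gnptab, a subunit of the enzyme that places the mannose 6-phosphate tag, had 236 to 263 CPM in OCsCtr, 131 to 189 in OCsEo and 124 to 163 in OCsEoS. In Gnptab the difference on the log2 scale was -0.64 in OCsEo (SE 0.09, adjusted p = 1.12e-04) and -0.81 in OCsEoS (SE 0.09, adjusted p = 8.51e-06). The mannose 6-phosphate receptor gene M6pr gave 0.02 in OCsEo (SE 0.05, adjusted p = 0.872) and 0.08 in OCsEoS (SE 0.05, adjusted p = 0.279). Scarb2, the receptor LIMP-2, gave 0.51 in OCsEo (SE 0.09, adjusted p = 4.76e-04), a call lost without OCsCtr replicate 1, 2 or 3 or OCsEo replicate 4, and 0.31 in OCsEoS (SE 0.09, adjusted p = 0.0137). Lgmn, whose product legumain cuts several cathepsins to their mature chains, gave 0.42 in OCsEo (SE 0.10, adjusted p = 0.00667) and 0.17 in OCsEoS (SE 0.10, adjusted p = 0.259), under the cut-off in both, and was called in OCsEo without OCsCtr replicate 4 (0.51).

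The transcription factors of the MiT/TFE family, which bind the E-box form of lysosomal promoters, were 4 in number, and 0 were called in either comparison with OCsCtr by edgeR or DESeq2, with 1 of 4 at an unadjusted p under 0.05 in each. Mitf, Tfeb and Tfe3 gave -0.12, 0.04 and -0.02 in OCsEo and -0.16, -0.06 and 0.08 in OCsEoS, with edgeR adjusted p-values of at least 0.237. Tfec was lower by the adjusted p alone in OCsEo (-0.41, SE 0.08, adjusted p = 0.00153) and in OCsEoS (-0.38, SE 0.08, adjusted p = 0.00207).

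Of 6 other cathepsins, 5 were tested. In OCsEo, Ctsk was called lower, and Ctse and Ctsg were called higher. Ctse, the aspartic protease cathepsin E of the endosome, was 5.16 to 6.50 CPM in OCsCtr, 9.66 to 14.4 in OCsEo and 6.19 to 7.99 in OCsEoS. It rose by 1.11 in OCsEo (SE 0.16, edgeR adjusted p = 6.99e-05), gave 0.27 in OCsEoS (SE 0.16, adjusted p = 0.253), and was called lower in OCsEoS than in OCsEo (-0.85, SE 0.15, adjusted p = 0.0143), a call lost without OCsEo replicate 2 or OCsEoS replicate 3. Ctsg, a serine protease of neutrophil granules, rose by 0.66 in OCsEo (SE 0.22, adjusted p = 0.0410), and this call was lost with any single library of OCsCtr or with OCsEo replicate 1, 2 or 3 left out. Of 14 other cystatins and stefins in the table, 6 were tested and 0 were called in any comparison by edgeR or DESeq2, with 0 at an unadjusted p under 0.05 in those with OCsCtr and 1 in OCsEoS against OCsEo. Cstb, the cytosolic cysteine cathepsin inhibitor stefin B, gave 0.10 in OCsEo (SE 0.06, adjusted p = 0.292) and 0.02 in OCsEoS (SE 0.06, adjusted p = 0.875).

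Partners and substrates of the members were listed as 8 genes, of which 7 were tested. Glb1 encodes the β-galactosidase that cathepsin A protects, and it fell in OCsEo (-0.51, SE 0.09, edgeR adjusted p = 8.36e-04) and in OCsEoS (-0.72, SE 0.09, adjusted p = 2.68e-05). Its call in OCsEo was lost without OCsCtr replicate 2 or 4 or OCsEo replicate 1 or 3. Tpp1, a lysosomal aminopeptidase, gave -0.32 in OCsEo (SE 0.07, adjusted p = 0.00246) and fell in OCsEoS (-0.51, SE 0.07, adjusted p = 3.05e-05), where the call was lost without OCsCtr replicate 4 or OCsEoS replicate 4. Elane, the neutrophil elastase gene whose product cathepsin C activates, rose in OCsEo (0.99, SE 0.17, adjusted p = 3.80e-04) and gave 0.40 in OCsEoS (SE 0.17, adjusted p = 0.0905). Cd74, the invariant chain cut by cathepsin S, gave -0.12 in OCsEo (SE 0.12, adjusted p = 0.559) and 0.27 in OCsEoS (SE 0.12, adjusted p = 0.120).

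**Figure D5:**
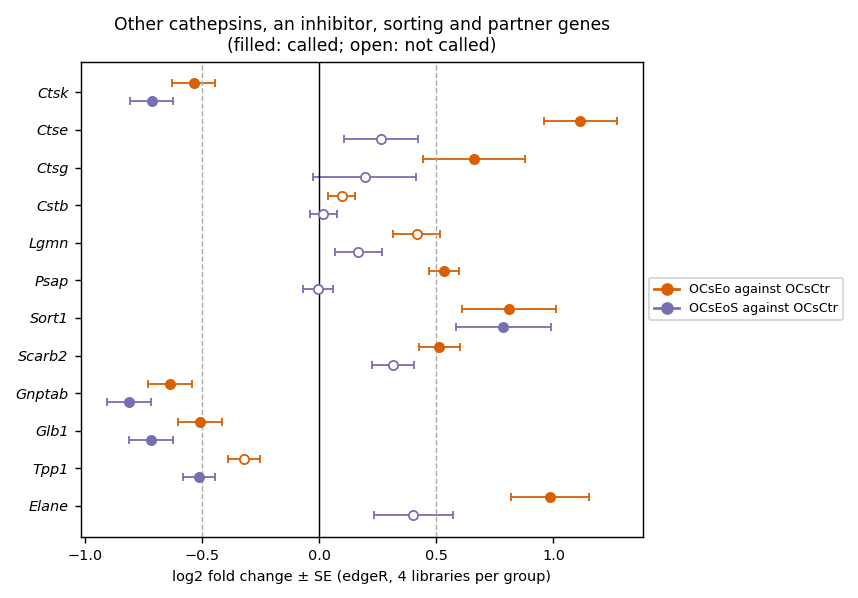
Fitted log2 fold changes with standard errors (x axis) of 12 genes that are no members (y axis), with dashed lines at the cut-off of 0.5 and filled points for called genes. Ctsk, Gnptab and Glb1 are called lower and Sort1 higher in both comparisons, Tpp1 is called lower only for OCsEoS, and Psap, Ctse, Ctsg, Scarb2 and Elane are called higher only for OCsEo.

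Markers of other cells moved with some of these differences. The 10 eosinophil genes summed to 57.1 to 73.7 CPM in OCsCtr, 60.1 to 82.1 in OCsEo and 49.3 to 55.4 in OCsEoS, so that the ranges of OCsCtr and OCsEo overlapped. Of the 5 that were tested, Alox15 (log2 5.17, SE 0.49, edgeR adjusted p = 8.42e-07) and Siglecf (2.76, SE 0.48, adjusted p = 5.62e-04) were called higher in OCsEo. Ccr3 was lower there by the adjusted p (-0.29, SE 0.08, adjusted p = 0.0164), Prg2 (-0.0089) and Ear2 (-0.20) did not pass the test, and the median of the 5 was -0.0089. Most of the summed level came from Ccr3, at 59.6, 48.7 and 50.7 CPM on average in OCsCtr, OCsEo and OCsEoS. Alox15, a lipoxygenase gene, had 0.104 to 0.653 CPM in OCsCtr and 6.23 to 16.7 CPM in OCsEo, and was among the genes most alike to Ctsd. Epx, the eosinophil peroxidase gene, had 0 counts in 2 of the OCsEo libraries, 18 and 13 in the others, and 0 in all OCsEoS libraries, where Prg3, Ear1 and Ear6 were at 0 too. The 10 neutrophil genes summed to 328 to 471 CPM in OCsCtr, 476 to 647 in OCsEo and 371 to 444 in OCsEoS, with 2 of 10 called higher in OCsEo (Camp and Elane) and 0 called in OCsEoS by edgeR or DESeq2, where 1 was higher and 2 lower at an unadjusted p under 0.05. Among 8 macrophage genes, 1 was called higher in OCsEo (Cd14), and 3 higher (Cd14, Adgre1 and Mrc1) and 1 lower (Csf1r) in OCsEoS. The part of such cells in the levels of Ctsl, Ctss, Ctsd, Ctsb and Ctsc was not tested.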

How the data were processed

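Bulk RNA-seq. of 12 osteoclast libraries was analysed from the table of raw counts per gene that the authors deposited. The authors cleaned paired-end reads (fastp), aligned them with HISAT2 2.0.5 to GRCm38/mm10 and counted reads per gene with featureCounts, without normalization. The annotation release and strand setting are not given in the sources used here. Gene length in bases, as deposited beside the counts, equalled the GENCODE vM21 exon length for 83.4% of the 47643 genes. Samples were grouped by their labels. Columns not used were 0 in number.

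The filter on low counts was filterByExpr (minimum count 10), scaling was by TMM, and all 12 libraries in 3 groups entered 1 model, in which groups were compared with the quasi-likelihood F-test of edgeR 4.0.16 (R 4.3.3, limma 3.58.1). DESeq2 1.42.0 served as the alternative. CPM are TMM-scaled, and TPM use the deposited gene length. Adjusted p-values are Benjamini-Hochberg values over all 13681 tested genes. SE was derived from the test, as the absolute fitted log2 fold change divided by the square root of its F statistic. Calls required an adjusted p below 0.05 and a log2 fold change beyond 0.5 in size. With 27837530 to 40327869 counts per library, precision was set by the spread between replicates. The steps were tested on simulated data. There, edgeR called 60 of 100 genes changed by a log2 fold of 0.6 and 81 of 100 changed by 1. It made 8 false calls among 13400 genes.

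The members and all lists were chosen with earlier results of these data known. The genes named are the members, for each member the 3 most alike tested genes by Pearson r of log2 CPM (prior count 2), and, from lists of other cathepsins, other cystatins and stefins, sorting and processing genes, MiT/TFE factors, and partners and substrates, the genes called against OCsCtr, plus Ctsk, Lgmn and Cstb. M6pr, Mitf, Tfeb, Tfe3, Tfec, Cd74, Gpnmb, the genes overlapping members, and single markers were named after their values were seen. Marker lists covered osteoclasts, macrophages, eosinophils, neutrophils, dendritic cells, T cells, B cells, mast cells and basophils, and stromal cells. The alternatives were DESeq2 on all libraries or on 2 groups, DESeq2's size factors, no low-count filter or a minimum of 10 counts per library, 2-group fits of edgeR, other cut-offs, a replicate block, removal of each library's gene length trend, and each library left out in turn. GENCODE vM21 lengths for ratios between genes were added after the data were seen.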

Additional observations from a re-analysis of the deposited data

Results flagged for a closer look

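Single libraries stood apart from the other 3 of their group (Dixon's test at 95%, critical value 0.829) for 3 members, in 4 of the 27 groups tested, and chance alone flags about 1 in 20 groups. OCsCtr replicate 4 was above the others of its group for Ctsc (199.6 CPM, with 166 to 169 CPM in the others) and for Ctsd (2567 CPM, with 2227 to 2243 CPM). For Ctsd, OCsEo replicate 3 was below the others (3367 CPM), and for Ctss, OCsEo replicate 4 was above them (1373 CPM). Without OCsCtr replicate 4, the log2 fold change of Ctsd was 0.66 in OCsEo and that of Ctsc was 0.54 in OCsEoS.

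Contact with eosinophils and with their supernatant differed by a test of the difference itself for 3 members in the edgeR fit with all 12 libraries. In OCsEoS against OCsEo, the log2 fold change was -0.48 for Ctsb, -0.46 for Ctsd and -0.32 for Ctsa (edgeR adjusted p = 0.00123, 1.07e-04 and 0.0261). Ctsb and Ctsd had been higher in OCsEo than in OCsCtr, whereas Ctsa was lower in OCsEoS than in OCsCtr. The value for Ctsa did not pass in 6 of the fits that left out 1 library. Ctsz passed 0.05 with DESeq2 on all libraries (-0.21, adjusted p = 0.00595) and, without the filter on low counts, so did Ctsl (-0.26, adjusted p = 0.0149), Ctss (-0.25, adjusted p = 0.0320) and, higher in OCsEoS, Ctsc (0.28, adjusted p = 0.0251). In the same comparison, Mpo (-0.79), Ngp (-0.62) and Ltf (-0.84) of the neutrophil list were called lower in OCsEoS by edgeR, while DESeq2 called 5 of that list lower. Alox15 (-4.03) and Prg2 (-2.73) of the eosinophil list were called lower too. The authors count Mpo as eosinophil-related, and Prg2 was not higher in OCsEo than in OCsCtr (-0.0089). The part of these markers in the differences of the members was not tested.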

How the results depend on the processing

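The calls of Ctsl, Ctss, Ctsb and Ctsd in OCsEo against OCsCtr were made in every alternative at the cut-off of 0.5. With a cut-off of 1 on the log2 fold change, 1 member was called in OCsEo and 0 in OCsEoS against OCsCtr. The share of all tested genes at that cut-off was not computed. By the adjusted p alone, 6 were called in OCsEoS against OCsCtr and 3 in OCsEoS against OCsEo. Leaving out 1 library at a time gave 4 to 4 called members in OCsEo, 1 to 3 in OCsEoS against OCsCtr, and 0 to 1 in OCsEoS against OCsEo. With the gene length trend removed, Ctsc was called (0.55) and Ctss was not (0.41) in OCsEoS, and the sign turned for Cst3 (-0.10) and Cstb (-0.088) in OCsEoS against OCsCtr and for Sort1 (0.011) in OCsEoS against OCsEo. The other signs that turned belonged to values near 0, whose cause was not tested. For Psap in OCsEoS against OCsCtr, they were 0.00095 with DESeq2 on all libraries, 0.0011 with its size factors, 0.0046 with at least 10 counts in every library and 0.0044 with edgeR on 2 groups. With 1 library left out, the log2 fold change ranged from -0.020 to 0.061 for Ctsa in OCsEo, from -0.016 to 0.055 for Cst3, from -0.025 to 0.054 for Cstb and from -0.051 to 0.068 for Psap in OCsEoS against OCsCtr, and from -0.12 to 0.00038 for Ctsh and from -0.19 to 0.15 for Sort1 in OCsEoS against OCsEo. Depth limited no statement on a member.

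The deviations of same-numbered libraries from their group means correlated at -0.0435 to 0.0944, with 0 of 12 pairs over 0.1. Such weak values do not settle whether the replicate numbers of the labels pair the libraries. With the replicate number as a block, 4, 2 and 0 members were called in the 3 comparisons, as without it, and Psap in OCsEoS against OCsCtr was at 0.00050. Under the block, 4 members without a pass in the unblocked fit fell under an adjusted p of 0.05 (edgeR), none beyond the cut-off of 0.5, namely Ctsd (0.15, adjusted p = 0.0190) and Ctsb (0.17, adjusted p = 0.0488) in OCsEoS against OCsCtr, and Ctsl (-0.26, adjusted p = 0.00261) and Ctsz (-0.21, adjusted p = 0.0279) in OCsEoS against OCsEo.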

Other observations

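Other marker lists were at low levels and gave few calls against OCsCtr. The 6 dendritic cell genes summed to 17.3 to 27.2 CPM over all libraries, with 1 called lower in OCsEo and 0 in OCsEoS (edgeR and DESeq2, 0 at an unadjusted p under 0.05 in OCsEoS). The T cell genes summed to at most 3.66 CPM, with Cd3e and Cd8a at 0 in OCsCtr, and the mast cell and basophil genes to at most 7.74 CPM. The B cell genes summed to 7.39 to 21.4 CPM and the stromal cell genes to 9.65 to 61.4 CPM, where the highest value was that of an OCsCtr library. Of these T cell, B cell, mast cell and basophil, and stromal genes, 0 were called in either comparison with OCsCtr by edgeR or DESeq2, and 2 B cell genes in OCsEo reached an unadjusted p under 0.05, 1 higher and 1 lower.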
